A study of Mus musculus with 4 samples.

Results

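The genes described here are 42 genes of the actin cytoskeleton and of cell motility, out of 18894 genes with counts in tumor or blood neutrophils. They were listed by name for their function, with earlier results of these data known, and fall into 6 groups: actin and its monomer-binding proteins, the Arp2/3 complex and its regulators, filament capping, severing and bundling proteins, myosin and tropomyosin, linkers to the membrane and to integrins, and the 4 signalling genes Cdc42, Rhoa, Dock2 and Arhgdib. Levels were read in cell barcodes with at least 200 detected genes and at most 15% mitochondrial UMIs (unique molecular identifiers, each standing for 1 captured RNA molecule).

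Actin polymerises from monomers into filaments, and a neutrophil crawls by pushing its front forward with a branched filament network and by contracting its rear with myosin. Monomers are held ready by thymosin and profilin, branches are started by the Arp2/3 complex under proteins such as WASP, and filaments are capped, cut and bundled by further proteins. Defects in several of these genes cause immune deficiencies in which leukocytes migrate poorly.

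Neutrophils came from 3 FVB mice, an inbred strain, that carried tumors of injected Py7160 cells and had received no treatment. All mice bore tumors, so blood neutrophils are not those of healthy animals. Tumor cells were released with enzymes and blood was treated to lyse red cells. Ly6G selection and a CD11b+ Ly6G+ sort followed, the 3 mice of a tissue were marked with hashtag antibodies and pooled, and each tissue went into 1 library by Drop-seq, which captures the RNA of single cells in droplets. Tissue, library and release of the cells therefore cannot be told apart, and every test below measures the spread between mice within a library. Mice are told apart by hashtags only, and cells placed in the wrong mouse would mix the sums and could narrow that spread.

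A cell was assigned to a mouse where at least 70% of its hashtag counts came from 1 hashtag. This gave 106, 564 and 171 cells in tumor mice 1, 2 and 3 and 511, 456 and 408 in the blood mice, with 572844 and 1147068 UMIs in all. The median cell held 570 to 586 UMIs in the tumor mice and 647.5 to 671 in the blood mice. Hashtag 2 made up 66.2% of the tumor hashtag counts, and of the 564 cells of tumor mouse 2 the program HTODemux called 230 free of any hashtag and 243 mouse 2. Over all mice, HTODemux gave the same mouse to 498 of 841 assigned tumor cells and 1238 of 1375 assigned blood cells. No assigned barcode was shared by the libraries. Neutrophil markers (10 of 10 detected in both tissues) summed to 71221 to 85126 CPM (counts scaled to a common total of UMIs) in the tumor mice and 179439 to 207068 in the blood mice. Most of each sum came from S100a8 and S100a9, and 2 markers of the list went the other way. Il1r2 had 187, 1177 and 396 UMIs in the tumor mice and 40, 22 and 30 in the blood mice. G0s2 had 103, 483 and 153 in tumor and 43, 11 and 7 in blood. At least 2 marker UMIs were found in 749 of 841 tumor cells and 1370 of 1375 blood cells. Macrophage and dendritic cell markers stood at 439 to 4664 CPM in tumor (12 of 12 detected) and 258.8 to 423.9 in blood (7 of 12). Erythroid markers were all at 0 in tumor and at 13960 to 22154 CPM in blood. Median mitochondrial percentages were 2.94 to 3.06 in tumor and 5.43 to 6.14 in blood.

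Promoter windows were matched for 40 of the 42 genes, all but Actb and Lsp1, and 4 of the 40 genes (10%) hold a CArG box, the recognition sequence of serum response factor (SRF), a transcription factor known for driving actin genes. The windows below are shown because they are the only matched windows of members with this motif. They come from the RefSeq promoter windows of build GRCm38.p6, which run from 250 bases before to 50 bases after the annotated start, and are written 5′ to 3′ on the gene's strand with the CArG box in capitals.

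Arpc4: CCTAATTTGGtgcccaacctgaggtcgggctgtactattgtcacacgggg
Myl6: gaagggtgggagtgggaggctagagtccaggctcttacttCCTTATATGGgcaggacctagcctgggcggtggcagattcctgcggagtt
Actg1: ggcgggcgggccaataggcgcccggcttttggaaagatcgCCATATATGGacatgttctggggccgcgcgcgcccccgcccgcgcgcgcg
Vcl: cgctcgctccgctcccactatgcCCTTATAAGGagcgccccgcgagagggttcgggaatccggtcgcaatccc

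The Arpc4 sequence lies at chr6:113377863-113377912 on the plus strand, with the box starting 250 bases before the annotated start. The Myl6 sequence lies at chr10:128493010-128493099 on the minus strand (box at 50 bases), the Actg1 sequence at chr11:120348536-120348625 on the minus strand (box at 90 bases) and the Vcl sequence at chr14:20929148-20929220 on the plus strand (box at 227 bases). A window at another Myl6 start holds no box. Of all 27025 genes with such a window, 488 (1.81%) hold a CArG box on either strand. A match is a description of the letters, not of a bound site. Of these genes, Arpc4 and Myl6 were lower in tumor neutrophils, Vcl was not called and Actg1 had too few UMIs to be tested, as given below.

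Most genes of the machinery were lower in tumor neutrophils, with a small set going the other way. Of the 42 genes, 40 had enough counts to be tested. Of these, 27 were lower in tumor, 4 were higher (Capg, Ezr, Myl12a and Arpc3) and 9 were not called (quasi-likelihood test of edgeR over all 3674 genes tested, adjusted p under 0.05). Large changes were common between these libraries: 29.8% of all genes tested were lower and 30.2% higher. The counts of each function group below stand beside these same shares. Of the members, 14 were lower by over 1 on the log2 scale, as were 23.4% of all genes. The median log2 fold change was -0.69 over the 40 members and -0.04 over all genes tested. For single members it is also said below whether all tumor mice lay apart from all blood mice. The share of all genes tested that do so was not counted, so such separation shows nothing particular to the members. Actg1 and Evl, with 6 and 7 UMIs over both tissues, were not tested.

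**Figure D1:**
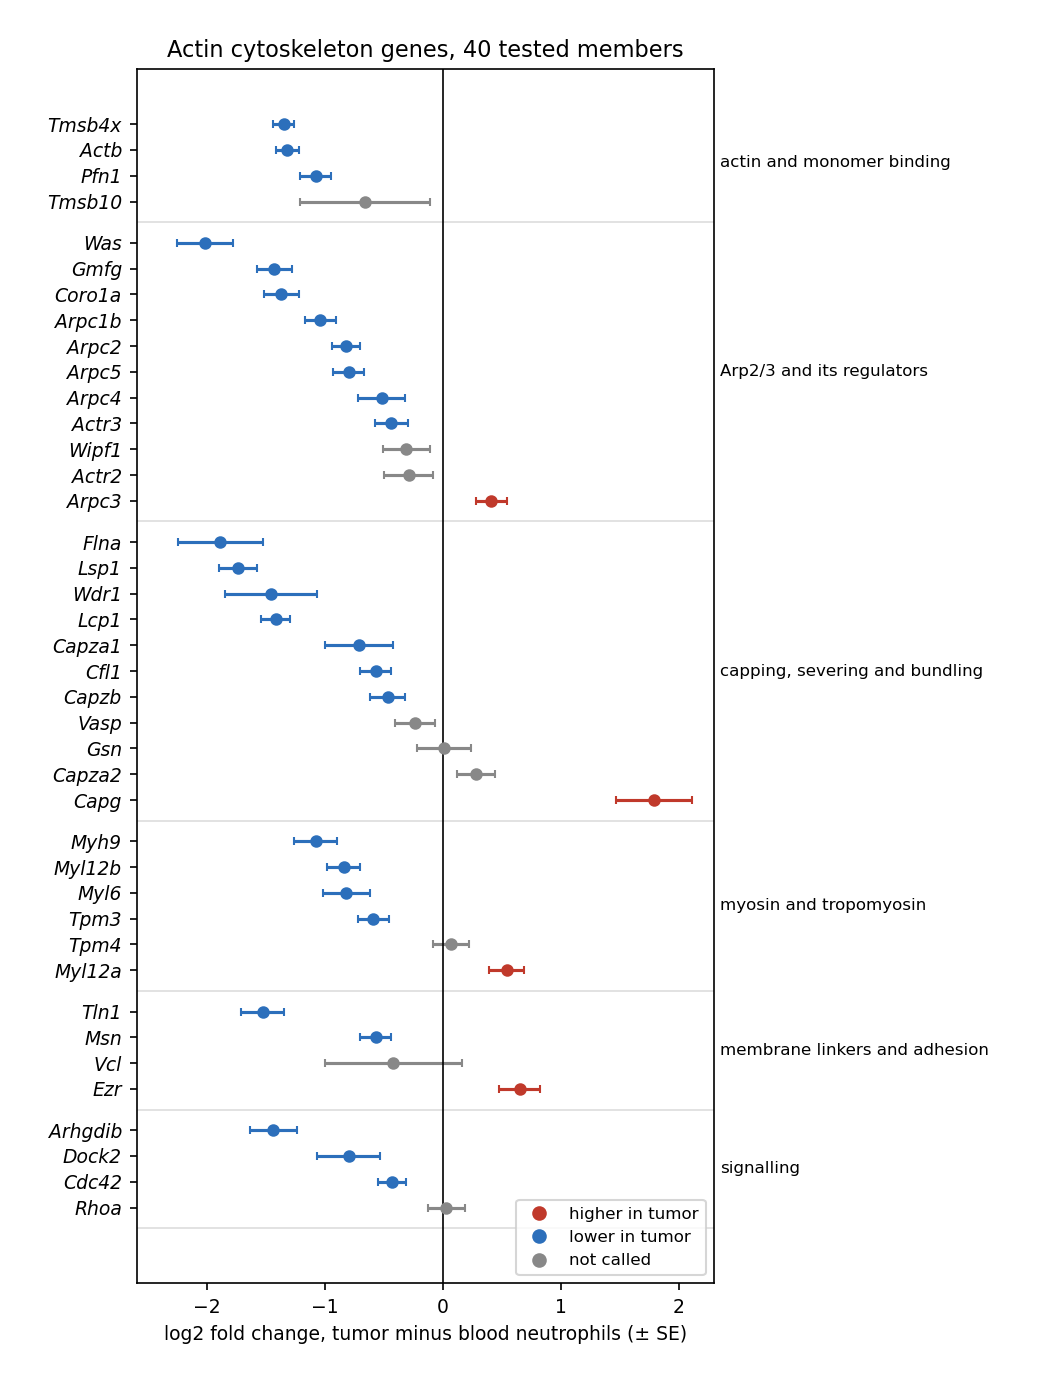
Log2 fold change, tumor minus blood, of the 40 tested members in their 6 function groups, with bars for the standard error and colour for the call (adjusted p under 0.05). The points of 27 members are blue and left of 0, those of 4 members are red and right of 0, and 9 are grey.

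As a share of all UMIs, the 42 genes made up 3.02%, 3.01% and 2.94% in the tumor mice and 6.25%, 6.33% and 6.32% in the blood mice. Actb and Tmsb4x carried a large part of that share, and without them the other 40 genes made up 1.57% ± 0.0523 in tumor and 2.67% ± 0.0327 in blood (SD, n = 3 mice). Each of the groups below was lower in every tumor mouse than in every blood mouse. The tumor share divided by the blood share was 0.395 for actin and its monomer binders, 0.52 for capping, severing and bundling proteins, 0.582 for Arp2/3 and its regulators, 0.655 for membrane linkers and 0.718 for myosin and tropomyosin. These shares carry no test, since the members were chosen with results of these data known.

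Actin itself and its main monomer binders were lower in tumor neutrophils by over 1 on the log2 scale. In this group 3 of 4 tested genes fell and none rose, with a median log2 fold change of -1.20. Levels from here on are CPM scaled by TMM, edgeR's correction for library composition, over the UMIs of tested genes. Actb, which encodes cytoplasmic beta-actin (chromosome 5, 142903115 to 142906754, minus strand, mm10), stood at 7052, 8087 and 7367 CPM in tumor mice 1, 2 and 3 and at 18909, 18841 and 18375 CPM in the blood mice. All tumor mice lay below all blood mice, with Actb changed by -1.32 ± 0.10 on the log2 scale (SE; edgeR, adjusted p = 4.03e-09). A tumor cell held on average 4.74 ± 0.203 Actb UMIs and a blood cell 14.7 ± 0.386 (SD, n = 3 mice).

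Tmsb4x, encoding thymosin beta-4, the main protein that keeps actin monomers in reserve (chromosome X, 167207093 to 167209315, minus strand), stood at 7256, 8035 and 7864 CPM in the tumor mice and 19807, 19923 and 19247 CPM in the blood mice. Tumor and blood mice were fully separate, and Tmsb4x changed by -1.35 ± 0.09 (edgeR, adjusted p = 2.35e-09). Pfn1, encoding profilin, which feeds monomers to growing filament ends, stood at 991, 971 and 828 CPM in tumor, and 1835, 2006 and 2070 in blood. Pfn1 was lower in every tumor mouse, by -1.08 ± 0.13 (adjusted p = 1.64e-06). Tmsb10, a second thymosin, was not called, with a tumor mean of 50.1 ± 50.6 CPM and a blood mean of 83.5 ± 56.1 CPM, and 56% of the 60-base windows in the last 500 bases of its transcripts also occur in another gene. Of the 28 Tmsb10 UMIs in tumor, 16 (57.1%) came from 72 cells with at least 2 marker UMIs of another cell type. Those cells held 13.2% of the UMIs of assigned tumor cells. Leaving out blood mouse 3 alone turned Tmsb10 into a lower call, with a log2 fold change of -1.20 (adjusted p = 0.0158). Actg1, encoding cytoplasmic gamma-actin, had 3 UMIs in each tissue.

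The Arp2/3 complex, a unit of 7 proteins that starts filament branches, was lower in 5 of its 7 measured subunits and higher in 1. The largest decreases in this group were in its activators and modulators rather than its subunits: the median over the subunits was -0.52, and over all 11 genes of the group -0.80. Arpc1b, the subunit isoform of blood cells, stood at 728, 1012 and 883 CPM in the tumor mice and 1806, 1866 and 1885 CPM in the blood mice, a log2 fold change of -1.04 ± 0.13 (adjusted p = 4.2e-06). Arpc2, a scaffold subunit, stood at 1268, 1277 and 1094 CPM in tumor, and 2066, 2238 and 2121 in blood, a change of -0.82 ± 0.12 (adjusted p = 2.21e-05). Tumor mice lay below blood mice without overlap in both genes. Arpc5 fell by 0.80 (SE 0.13), Arpc4 by 0.52 (SE 0.20) and Actr3 by 0.44 (SE 0.14) on the log2 scale, and Actr2 was not called at -0.29 ± 0.21. The Arpc4 call was lost with DESeq2 and in 7 further of the 18 alternatives, and the Actr3 call with a 90% hashtag threshold.

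Arpc3, a small subunit of the same complex (chromosome 5, 122391878 to 122414184, plus strand), went the other way. It stood at 1034, 977 and 938 CPM in the tumor mice and 743, 744 and 721 CPM in the blood mice. Every tumor mouse lay above every blood mouse, and the gene rose by 0.41 ± 0.13 on the log2 scale (edgeR, adjusted p = 0.00942). The call is a weak one: it was lost with DESeq2 (adjusted p = 0.104), with no low-count filter (0.653), with at least 300 genes per cell (0.145) and with any of blood mice 1, 2 or 3 left out (0.128, 0.116 and 0.186). The direction held in each of these fits.

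Regulators of branching had lower levels in tumor neutrophils. Was, encoding WASP, the blood cell protein that switches Arp2/3 on and is mutated in Wiskott-Aldrich syndrome, stood at 87.4, 80.9 and 36.8 CPM in the tumor mice and 275, 313 and 286 CPM in the blood mice. The mice did not overlap, and the log2 fold change of -2.02 ± 0.24 (adjusted p = 2e-06) rested on 38 tumor and 315 blood UMIs. Wipf1, encoding the partner that protects WASP from breakdown, was not called, at -0.31 ± 0.20 (adjusted p = 0.197), and was called lower when blood mouse 2 was left out (-0.56, adjusted p = 0.0252). Whether the changes of Was and Wipf1 differ from each other was not tested.

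Coro1a, encoding coronin-1A, which binds Arp2/3 and filaments in leukocytes, stood at 335, 439 and 313 CPM in tumor, and 1033, 1013 and 912 in blood. Gmfg, encoding glia maturation factor gamma, which takes filament branches apart, stood at 350, 309 and 304 CPM in tumor, and 881, 867 and 809 in blood. Both genes were lower in every tumor mouse than in every blood mouse. The log2 fold changes were -1.37 ± 0.15 for Coro1a (adjusted p = 8.74e-07) and -1.43 ± 0.15 for Gmfg (adjusted p = 2.43e-07). For Gmfg, 51.9% of the windows near the 3' end also occur in another gene, so its count may include or lack reads of a copy.

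Among the proteins that cap, cut and bundle filaments, 7 of 11 tested genes were lower, 1 was higher and 3 were not called, with a median of -0.57. The bundlers were among the largest decreases. Lcp1, encoding L-plastin, the leukocyte filament bundler, stood at 1166, 1315 and 1251 CPM in the tumor mice and 3354, 3425 and 3253 CPM in the blood mice. Lsp1, encoding a filament-binding protein of leukocytes, stood at 335, 260 and 377 CPM in tumor, and 1006, 1049 and 1032 in blood. For both, all tumor mice lay below all blood mice, and the log2 fold changes were -1.42 ± 0.12 for Lcp1 (adjusted p = 1.68e-08) and -1.74 ± 0.16 for Lsp1 (adjusted p = 6.34e-08).

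Flna, encoding filamin A, which crosslinks filaments and anchors them to the membrane, stood at 14.6, 43.4 and 9.2 CPM in tumor, and 120, 120 and 116 in blood. Wdr1, which helps cofilin take filaments apart, likewise had 17 tumor UMIs (1, 15 and 1 in the mice, for both genes) and stood at 88.3, 81.1 and 94.4 CPM in blood. The log2 fold changes were -1.89 ± 0.36 for Flna and -1.46 ± 0.39 for Wdr1 (adjusted p = 0.000237 and 0.00375). With tumor mouse 2 left out they were -3.31 and -2.88, on 2 tumor UMIs each, so the sizes rest on that mouse. Cfl1, encoding cofilin, the main severing protein, stood at 568, 650 and 543 CPM in the tumor mice and 878, 923 and 865 CPM in the blood mice. All tumor mice lay below all blood mice, and Cfl1 fell by 0.57 on the log2 scale (SE 0.13, adjusted p = 0.00156). The capping protein subunits Capzb (-0.47 ± 0.15) and Capza1 (-0.71 ± 0.29) were lower. The Capza1 call was lost in 9 of the 18 alternatives, and the Capzb call with at least 300 genes per cell and without tumor mouse 3. Capza2 (0.28 ± 0.16), Vasp, which extends filaments at their growing ends (-0.24 ± 0.17), and Gsn, encoding gelsolin, which severs and caps (0.01 ± 0.23), were not called.

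Capg, encoding a gelsolin-like protein that caps filaments without cutting them (chromosome 6, 72544391 to 72562983, plus strand), was the member with the largest increase. It stood at 87.4, 127 and 184 CPM in the tumor mice and 46.6, 42 and 25.2 CPM in the blood mice. The mice did not overlap, and Capg rose by 1.79 ± 0.32 on the log2 scale (edgeR, adjusted p = 0.000153), on 70 tumor and 42 blood UMIs. Cells with at least 2 UMIs of the granule genes Camp, Ngp and Ltf, markers of immature neutrophils, held 34 of the 42 blood UMIs (81%) but 7 of the 70 tumor UMIs (10%). On plain CPM, blood Capg stood at 152.3 (exact 95% Poisson interval 105.5 to 212.9, counting error only) in those 113 cells and at 8.659 (3.738 to 17.06) in the other 1262. In tumor it stood at 151 (60.7 to 311.1) in the 34 granule-gene cells and at 119.7 (91.95 to 153.1) in the rest. Without the granule-gene cells of both tissues the log2 fold change was 3.80 (adjusted p = 1.62e-07). Tumor cells with macrophage markers held 5.71% of the tumor Capg UMIs and 11.7% of all tumor UMIs, and without them the change was 1.91.

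**Figure D2:**
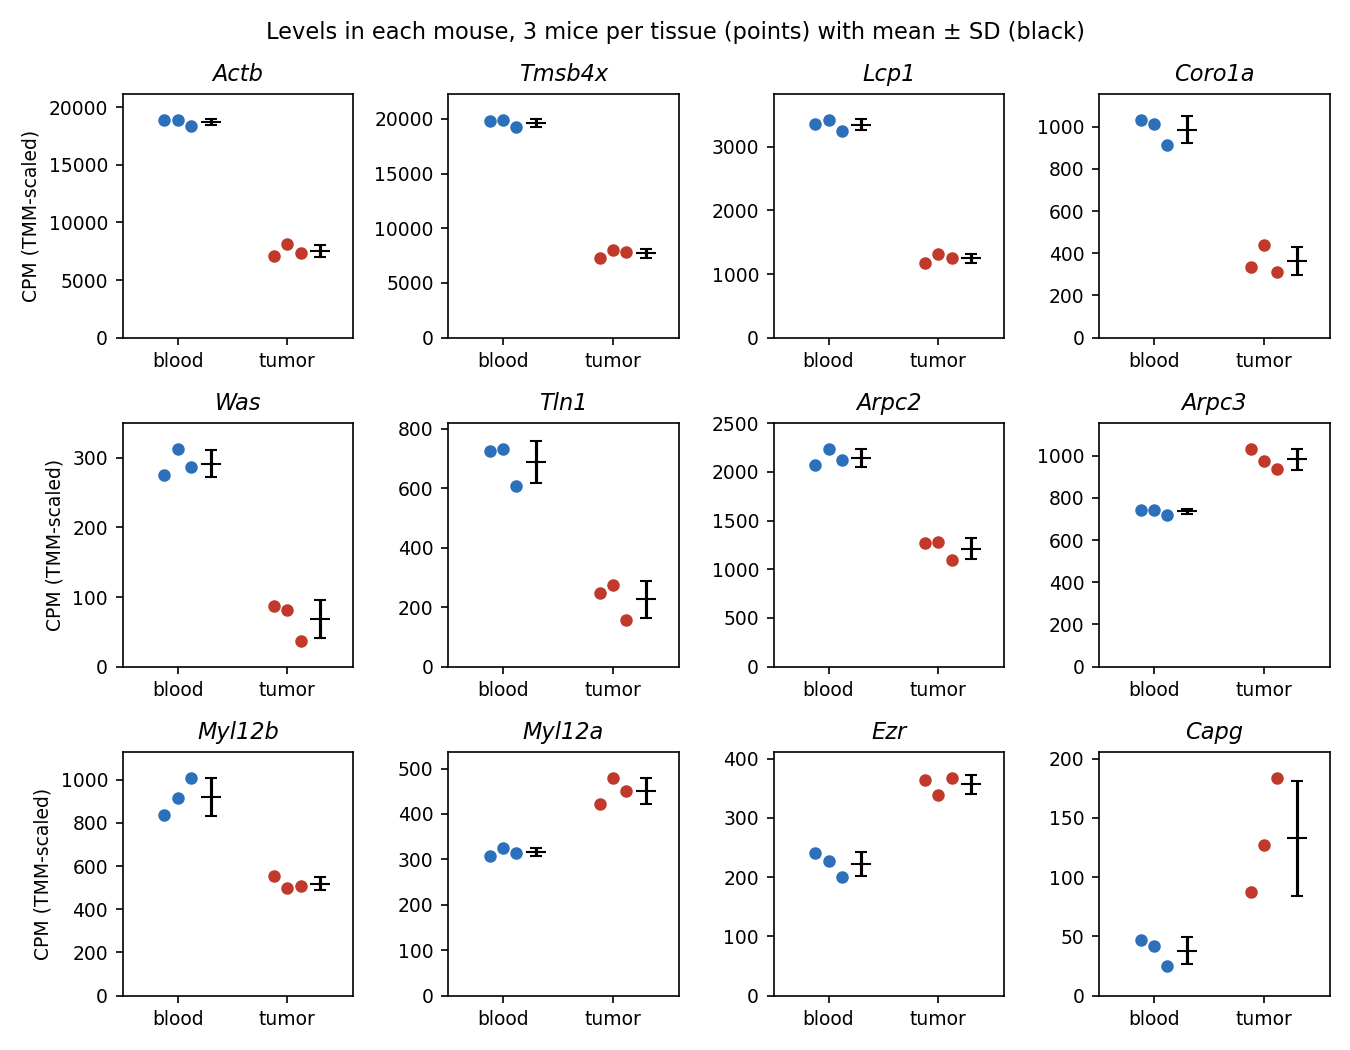
TMM-scaled CPM of 12 members in each mouse (points, 3 per tissue) with the mean ± SD (black), each panel on its own linear axis from 0. Actb, Tmsb4x, Lcp1, Coro1a, Was, Tln1, Arpc2 and Myl12b lie lower in all tumor mice, and Arpc3, Myl12a, Ezr and Capg lie higher.

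Myosin II, the motor that contracts the rear of the cell, was lower in its heavy chain and in most of its light chains. Of 6 genes of myosin and tropomyosin, 4 were lower, 1 was higher and 1 was not called, with a median of -0.70. Myh9, the non-muscle heavy chain, stood at 146, 173 and 193 CPM in tumor, and 373, 389 and 337 in blood, a log2 fold change of -1.08 ± 0.18 (adjusted p = 7.52e-05). Myl6, the essential light chain and one of the genes with a CArG box above, stood at 102, 182 and 202 CPM in tumor, and 304, 283 and 330 in blood, a change of -0.82 ± 0.20 (adjusted p = 0.00218). Of the Myl6 windows near the 3' end, 51.2% also occur in other genes, so its count may include or lack reads of copies. In both genes the tumor mice lay below the blood mice.

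The regulatory light chains, through which the motor is switched on by phosphorylation, moved in opposite directions. Myl12b stood at 554, 497 and 506 CPM in the tumor mice and 837, 915 and 1010 CPM in the blood mice, a log2 fold change of -0.84 ± 0.14 (adjusted p = 6.58e-05). Myl12a stood at 423, 480 and 451 CPM in tumor, and 307, 325 and 315 in blood, a change of 0.54 ± 0.15 (adjusted p = 0.00475). Neither gene overlapped between the tissues. The Myl12a call was lost with DESeq2 (adjusted p = 0.0764), with no low-count filter (0.482) and without blood mouse 1 (0.0803) or blood mouse 3 (0.0771). The genes are neighbours on the minus strand of chromosome 17, and an annotated Myl12b model (70974119 to 71002208) runs over the Myl12a gene (70993656 to 71002878), so how reads were divided between them is uncertain. The last 500 bases of their transcripts share no 60-base window with another gene. Tpm3 and Tpm4 encode tropomyosins, rods that lie along filaments and control access to them. Tpm3 stood at 656, 821 and 782 CPM in tumor, and 1133, 1105 and 1233 in blood, a change of -0.59 ± 0.13 (adjusted p = 0.00109), while Tpm4 was not called at 0.07 ± 0.15.

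Linkers between filaments and the membrane split within a family. Msn, encoding moesin, the main such linker of leukocytes, stood at 1166, 986 and 1214 CPM in the tumor mice and 1634, 1637 and 1671 CPM in the blood mice, a log2 fold change of -0.57 ± 0.13 (adjusted p = 0.000922). Ezr, encoding its relative ezrin (chromosome 17, 6738041 to 6782784, minus strand), stood at 364, 338 and 368 CPM in tumor, and 240, 227 and 201 in blood, a change of 0.65 ± 0.17 (adjusted p = 0.00295). The tissues did not overlap in either gene. The Ezr call was lost with a 90% hashtag threshold (adjusted p = 0.15), with no low-count filter (0.321), with at least 300 genes per cell (0.288) and without blood mouse 3 (0.068). Tumor barcodes with 20 to 60 UMIs, too shallow to be kept as cells, carried Ezr at 201.5 plain CPM (95% Poisson interval 151.4 to 262.9). On the same scale the assigned tumor cells carried it at 317.7 (273.2 to 367.4).

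Tln1, encoding talin, which switches integrins on and ties them to actin, stood at 248, 275 and 156 CPM in tumor, and 724, 733 and 607 in blood. Every tumor mouse lay below every blood mouse, with a log2 fold change of -1.53 ± 0.18 (adjusted p = 1.79e-06). Vcl, encoding vinculin, a partner of talin, was not called at -0.42 ± 0.58, and its 16 tumor UMIs all came from mouse 2. With that mouse left out no tumor UMI remained, and Vcl was called lower (adjusted p = 0.014).

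Among the signalling genes, Cdc42, which sets the direction of movement, stood at 1078, 977 and 1085 CPM in tumor, and 1396, 1393 and 1413 in blood, a log2 fold change of -0.43 ± 0.12 (adjusted p = 0.00601). Rhoa, which drives contraction at the rear, was not called at 0.03 ± 0.16. Arhgdib stood at 204, 477 and 285 CPM in tumor, and 1070, 1010 and 890 in blood, a change of -1.44 ± 0.20 (adjusted p = 9.01e-06). The 34 granule-gene tumor cells, 26 of them in mouse 2, held 80 of the 210 tumor Arhgdib UMIs (38.1%). They held 8.09% of all UMIs of assigned tumor cells. The Arhgdib call held in all 18 alternatives, among them the fit without granule-gene cells. Dock2, the leukocyte activator of Rac, stood at 43.7, 72.3 and 92 CPM in tumor, and 113, 126 and 145 in blood, a change of -0.80 ± 0.27 (adjusted p = 0.017). The mice did not overlap between tissues in Cdc42, Arhgdib and Dock2. The Cdc42 call was lost with a 90% hashtag threshold, and the Dock2 call with that threshold, with DESeq2, with cells placed alike by both hashtag rules and without tumor mouse 2.

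Ratios within pairs of related genes do not depend on how a library is scaled. Of 7 pairs, 5 had UMIs of both genes in every mouse. The Myl12a to Myl12b ratio of UMIs was 0.763, 0.965 and 0.891 in the tumor mice and 0.367, 0.355 and 0.312 in the blood mice. The Ezr to Msn ratio was 0.312, 0.343 and 0.303 in tumor and 0.147, 0.138 and 0.121 in blood. Both ratios were higher in every tumor mouse. The Capza1 to Capza2 ratio (0.16 ± 0.0515 in tumor and 0.312 ± 0.0664 in blood, SD, n = 3) and the Tpm3 to Tpm4 ratio (1.35 ± 0.361 and 2.1 ± 0.0168) were lower in every tumor mouse. Each of these 4 pairs reached an exact two-sided permutation p of 0.1, which is as low as a test of 3 against 3 can go, or 0.125 after Benjamini-Hochberg adjustment over the 5 pairs, so none could pass 0.05. The separation of Capza1 to Capza2 was lost with a 90% hashtag threshold (exact permutation p = 0.4) and without cells with markers of another type or with macrophage markers (0.2 each), and that of Tpm3 to Tpm4 without granule-gene cells (0.2). The Actr2 to Actr3 ratio overlapped between the tissues, at 0.33 ± 0.0608 and 0.293 ± 0.0198 (exact permutation p = 0.5), and did not overlap with at least 300 genes per cell (0.1). Windows near the 3' end shared with other genes make up 51.9% for Tpm3, 49.4% for Capza1 and 35.6% for Actr3, so those ratios may hold reads of copies.

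**Figure D3:**
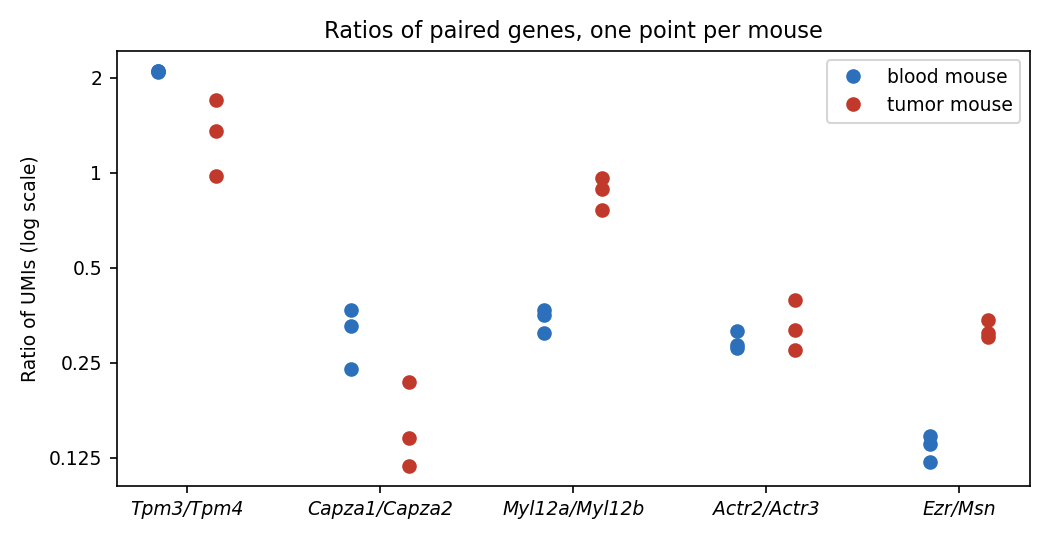
Ratio of UMIs of 5 gene pairs in each mouse, on a log axis, with blood mice in blue and tumor mice in red. The tumor mice lie above the blood mice for Myl12a/Myl12b and Ezr/Msn, below them for Tpm3/Tpm4 and Capza1/Capza2, and overlap them for Actr2/Actr3.

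In single cells the low share was widespread in tumor but uneven. The 42 genes made up a median of 2.41% of a tumor cell's UMIs (quartiles 1.26% and 4.06%) and 6.36% of a blood cell's (5.38% and 7.35%). The medians by mouse were 2.45%, 2.54% and 2.19% in tumor and 6.3%, 6.5% and 6.24% in blood. Of 841 tumor cells, 104 (12.4%) held no UMI of Actb or Tmsb4x, namely 11, 72 and 21 cells of mice 1, 2 and 3. No cell of 1375 in blood lacked both, which allows a share of up to 0.218% (counting error only). With HTODemux assignment, neither gene was seen in 67 of 590 tumor cells and in 0 of 1260 from blood.

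**Figure D4:**
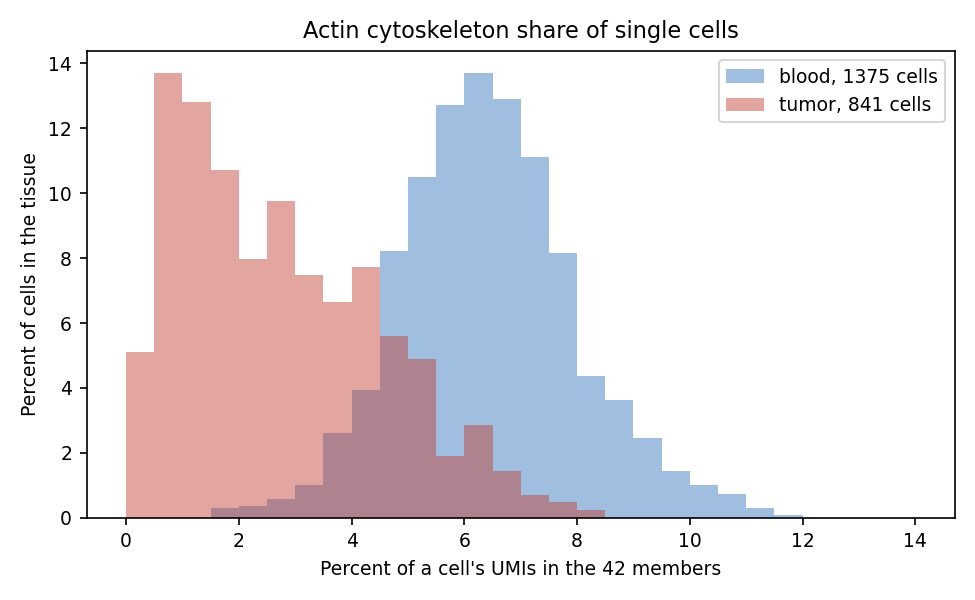
Distribution over cells of the percent of a cell's UMIs that belong to the 42 members, in bins of 0.5 percentage points, for 841 tumor cells and 1375 blood cells, each tissue summing to 100%. Blood cells form a single peak around their median of 6.36%, and tumor cells spread from 0 to above 8% with a median of 2.41%.

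At a fixed depth of 441 UMIs per cell, which left out 209 tumor and 254 blood cells, an Actb UMI was seen in 75.9% ± 4.41 of tumor cells and 99.7% ± 0.0553 of blood cells (SD, n = 3 mice). Without this thinning the shares were 76.2% and 99.9%. At the same depth Lcp1 was seen in 33.5% ± 2.65 of tumor cells and 72.6% ± 1.71 of blood cells (41% and 83.7% without thinning). Coro1a was seen in 12.4% ± 2.31 and 32.6% ± 1.67 (16% and 47.1%), and Capg in 4.78% ± 0.89 and 0.965% ± 0.346 (6.35% and 2.43%). No cell type in the libraries lacks actin, so a share of cells free of the gene could not be set beside these values. Barcodes with 20 to 60 UMIs carried the 42 genes at 1.39% of their UMIs in tumor and 2.6% in blood, below the 3% and 6.3% of the summed cells. Single genes differed: Actb stood at 3089 plain CPM in those tumor barcodes and 7128 in tumor cells, but Lcp1 at 1164 (95% Poisson interval 1039 to 1301) and 1171 (1084 to 1263) in tumor and at 3058 (2843 to 3284) and 3160 (3058 to 3265) in blood. Lcp1 thus made up a like share of the UMIs in these barcodes and in cells. In tumor this was 312 Lcp1 UMIs in 5945 barcodes and 671 in 841 cells. Whether such barcodes hold RNA from outside cells or shallow cells was not tested. In tumor the barcodes were at or above the cells for 5 members (Dock2, Evl, Flna, Vcl and Wdr1), and in blood for 1 (Actr2). Those 5 rested on 30, 1, 13, 9 and 10 UMIs in the tumor barcodes. For each of them the 95% Poisson intervals of barcodes and cells overlapped. Cells left without a mouse carried 2.39% and 6.41%, and the 230 tumor cells that HTODemux called free of hashtags carried 3.32%.

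The spread among tumor cells was described further by dividing each mouse's cells into tertiles of the percent of UMIs in Actb and Tmsb4x together. This division was chosen after the data had been seen and carries no test, and shares within a cell depend on each other because they sum to 100%. In the lowest, middle and highest tertile Actb and Tmsb4x made up 0.195%, 1.01% and 2.67% of tumor UMIs (means of 3 mice). The other 40 genes, not used for the division, made up 0.944% ± 0.132, 1.49% ± 0.0606 and 2.11% ± 0.0297. In blood the other 40 genes made up 2.48% ± 0.0465, 2.72% ± 0.0278 and 2.87% ± 0.13, a narrower range. Even the highest tumor tertile lay under the lowest blood tertile in these other genes, in each mouse.

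Members differed in how they followed actin across tumor cells. On plain CPM, Lsp1 stood at 41.7 ± 11.6, 252 ± 72.7 and 539 ± 158 from the lowest to the highest tertile. Lcp1 stood at 388 ± 89.3, 1224 ± 118 and 1679 ± 34, and Arpc1b at 276 ± 166, 701 ± 112 and 1301 ± 87.9. Arpc3, higher in tumor than in blood, followed them, at 663 ± 240, 846 ± 43.8 and 1172 ± 22.1. Capg ran against them, at 204 ± 74.3, 166 ± 45.2 and 28 ± 24.4, and was lowest in the highest tertile in each mouse (0 in mouse 1). Over all tertiles Capg had 6, 44 and 20 UMIs in tumor mice 1, 2 and 3, and Lsp1 had 23, 90 and 41. The tertile values of both genes therefore rest on few UMIs. Myl12a stood at 430 ± 37.6, 438 ± 60.3 and 398 ± 98.5 and Ezr at 386 ± 224, 386 ± 80.2 and 257 ± 128, with mice that overlapped between tertiles.

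Other genes moved with the actin share of tumor cells. S100a8, a neutrophil alarmin, stood at 10777, 23587 and 60467 CPM in the lowest, middle and highest tertile, and Retnlg, a marker of mature circulating neutrophils, at 466, 959 and 10622 CPM (means of 3 mice). The chemokine gene Ccl3 stood at 13549, 7369 and 2562 CPM, and Hilpda, a gene induced by low oxygen, at 4576, 1740 and 547 CPM. Each of these 4 genes kept that order of the lowest and highest tertile in each mouse. Median depth was 540, 590 and 630 UMIs per cell and median mitochondrial percentage 3.25, 2.96 and 2.83. The part of depth, mitochondrial RNA and composition in the low actin share was not tested.

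**Figure D5:**
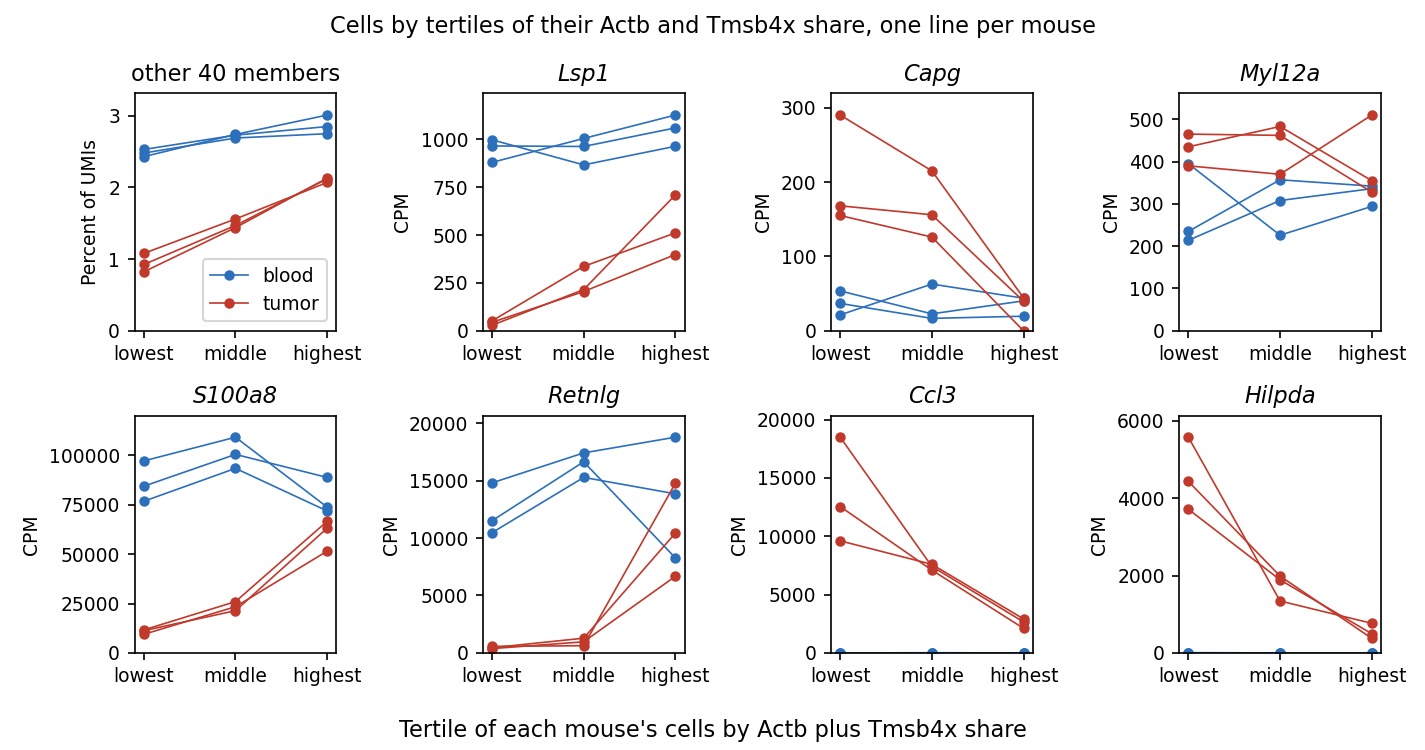
Share or plain CPM of the other 40 members and of 7 genes in the lowest, middle and highest tertile of each mouse's cells by percent of UMIs in Actb and Tmsb4x, with 1 line per mouse (tumor red, blood blue). In tumor the other members, Lsp1, S100a8 and Retnlg are higher in the highest tertile than in the lowest, Capg, Ccl3 and Hilpda are lower, and blood lines are flatter.

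The members' share was also read in tumor cells grouped by other genes. Tumor cells with at least 2 Retnlg UMIs carried the 42 genes at 4.49%, 4.58% and 4.45% of UMIs in mice 1, 2 and 3, and the remaining tumor cells at 2.56%, 2.52% and 2.63%. In blood the cells with at least 2 Retnlg UMIs and the rest overlapped across mice, at 6.24% ± 0.0906 and 6.45% ± 0.305. Tumor cells with at least 5 Ccl3 UMIs carried 1.99% ± 0.165 and the others 3.5% ± 0.0661 (SD, n = 3 mice). Pooled over mice, the 34 tumor cells with granule genes carried 5.49% and the other 807 carried 2.78%, against 6.35% and 6.29% in blood. Those 34 cells were 2, 26 and 6 in tumor mice 1, 2 and 3, with shares of 5.99%, 5.39% and 5.74%. The other tumor cells carried 2.88%, 2.77% and 2.76%. Granule-gene cells were also deeper, with a median of 1034 UMIs in tumor and 567 in the rest. The 66 tumor cells with macrophage markers carried 3.41%. These groups were also chosen after the data had been seen.

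Further genes of the pathway, read from a list outside the 42, showed falls and a few large increases. Of 59 other actin regulators, 48 were tested, 28 were lower and 6 higher, with a median of -0.92. The shares over all genes tested were 29.8% lower and 30.2% higher, with a median of -0.04. Marcksl1, which binds actin at the membrane, was higher (log2 fold change 2.83 ± 0.17, adjusted p = 2.04e-10), whereas the cofilin phosphatase gene Ssh2 (-2.68 ± 0.28, adjusted p = 4.2e-07) and the WAVE gene Wasf2 (-2.54 ± 0.31, adjusted p = 2.58e-06) were lower. Fmnl2, a formin that elongates filaments, had 43 UMIs in tumor and 1 in blood, a ratio of summed CPM of 86.1 (exact 95% interval 14.7 to 3479, counting error only).

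The other filament systems gave mixed counts. Of 14 microtubule and intermediate filament genes, 7 were tested, 3 were higher and 2 lower, with a median of 0.35. Of all genes tested, 30.2% were higher and 29.8% lower, and counts over so few genes show nothing particular to the list. Tuba1c, encoding an alpha-tubulin, was higher (log2 fold change 4.14 ± 0.28, adjusted p = 1.31e-09), and so were the nuclear lamin gene Lmnb1 (2.22 ± 0.16, adjusted p = 2.63e-09) and Mapre1, which binds growing microtubule ends (1.89 ± 0.24, adjusted p = 3.98e-06). Another alpha-tubulin gene, Tuba1a, was lower, at 14.6, 5.78 and 9.2 CPM in tumor, and at 81, 44.8 and 53.5 CPM in blood (-2.90 ± 0.57, adjusted p = 0.000313). Of 7 genes of SRF and its cofactors, Elk4 alone had enough counts to be tested and was not called (0.73 ± 0.36, adjusted p = 0.0923), so SRF itself gives no value here.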

How the data were processed

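The authors deposited unnormalised UMI counts of each gene in each barcode, and hashtag counts of the same kind. STAR and the mouse build mm10 are named without version in the submitters' processing notes; the gene counter and its gene models were not given in the sources used here. Barcodes with at least 200 genes and at most 15% mitochondrial UMIs were kept and assigned to mice by a hashtag holding at least 70% of hashtag counts. No other doublet caller was run, and 78 tumor and 101 blood cells that HTODemux gave several hashtags were kept in the reported fit. UMIs were summed per mouse and tissue (70612 to 436713 UMIs) and compared, tissue as the only term, with edgeR 4.0.16 (R 4.3.3; default low-count filter, TMM, Benjamini-Hochberg over 3674 genes holding 93.9% of UMIs). The edgeR script was tested on simulated data. Alternatives used HTODemux of Seurat 5.3.0 and DESeq2 1.42.0. Positions are from a GRCm38 annotation. Mouse values are given, per function group, for up to 4 called members with the largest log2 fold change and the 2 most abundant, and from other lists up to 4 called genes with at least 20 UMIs; those of Arpc3 and Myl12a were added after their values were seen. Members, lists and groups were chosen with earlier results of these data known. One further gene list and the summed share of one group are not reported here.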

Additional observations from a re-analysis of the deposited data

How the results depend on the processing

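The 18 alternatives left 22 of the 31 called members with their call wherever they were tested (21 of 27 lower members, and Capg). The lower members numbered 27 in the reported fit and 22 to 28 otherwise. The higher members numbered 4, but 2 with DESeq2, 1 with no low-count filter, 2 with at least 300 genes per cell and 1 to 4 with a mouse left out, lowest without blood mouse 3 (1) and blood mouse 1 (2). The median log2 fold change of all genes ran from -0.16 to -0.02. The members' share of tumor UMIs was 2.88% with HTODemux, 3.23% with at least 300 genes per cell (6.24% in blood), and, in alternatives chosen after seeing the data, 3.04% with a 90% hashtag threshold, 2.8% without granule-gene cells and 2.95% for cells placed alike by both hashtag rules. Of the 9 members that were not called, 3 changed sign (Gsn, Tpm4 and Rhoa). Gsn gave -0.06 with RLE scaling, -0.01 with DESeq2, -0.23 with no filter, -0.02 with at least 300 genes, -0.03 without cells with markers of another type, -0.04 without granule-gene cells, -0.09 with both hashtag rules and -0.26 to 0.14 with a mouse left out. Tpm4 gave -0.21 with no filter, -0.08 with at least 300 genes, -0.03 without granule-gene cells and -0.10 to 0.17 with a mouse left out. Rhoa gave -0.01 with a 90% threshold, -0.03 with RLE scaling, -0.02 with DESeq2, -0.24 with no filter, -0.03 with at least 300 genes and -0.18 to 0.16 with a mouse left out. Without thinning, the share of cells with a UMI, tumor minus blood, turned to 0.101 points for Actg1, -0.4 for Arpc3, -0.5 for Capza2 and -4.1 for Rhoa. The cause of these changes was not tested. With the replicate block, 25 members were lower and 4 higher (Arpc4 and Capza1 lost their call). Same-numbered sums correlated at 0.023, 0.00909 and -0.0228 in their deviations from the tissue mean, and sums with unlike numbers at -0.05 to 0.0512. Counting error could give values near 0 for sums of the same mouse too, so these values cannot decide whether the numbers pair the sums. Depth limits Flna and Wdr1 (17 tumor UMIs each), Vcl (16), Actg1 and Evl.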
